A study of Mus musculus with 20 samples.

Results

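The retinoic acid receptors and the enzymes that set retinoic acid levels are described here as places where 5-formylcytosine (5fC) lies in the genome. The 10 genes *Rara*, *Rarb*, *Rarg*, *Rxra*, *Rxrb*, *Rxrg*, *Aldh1a2*, *Cyp26a1*, *Cyp26b1* and *Cyp26c1* were taken by name, from 37273 annotated genes on the 21 assembled mouse chromosomes. Each gene was read as a window, its body plus 5 kb on each side, in NCBIM37 (mm9) coordinates. The windows of the neighbours *Cyp26a1* and *Cyp26c1* overlap, so together the 10 windows span 800277 bp. Other protein-coding genes reach into the windows of *Rara* (*Cdc6*), *Rarb* (*Top2b*), *Rarg* (*Itgb7*), *Cyp26c1* (*Exoc6*) and *Rxrb* (named below). A peak in a window therefore need not lie in the named gene.

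5fC was enriched from the DNA of dissected E11.5 mouse embryo tissues with a cleavable aldehyde-reactive biotin probe and sequenced, and the authors called peaks in each library by itself. WT hindbrain and *Tdg* null hindbrain were each taken from 4 embryos of 4 litters, named A, O, Q and Z, with one embryo of each genotype per litter. Heart, liver and carcass came from 2 further litters, pair_a and pair_b, in which the same WT embryo and the same *Tdg* null embryo gave all of these tissues. The *Tdg* null liver of litter pair_b was set aside, which left 19 libraries, 10 WT and 9 *Tdg* null, from 12 embryos. *Tdg* null embryos came from crosses of heterozygotes and carry, on both alleles, a neomycin-resistance cassette in place of the bases that encode the catalytic part of TDG. Every cell of the null embryo lacks the enzyme, and each library is bulk tissue.

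Retinoic acid is made from vitamin A in steps that end with an aldehyde dehydrogenase, and it is degraded by the CYP26 cytochromes P450. It binds the RAR receptors, which act on DNA as heterodimers with the RXR receptors at direct repeats of a short half-site, and together these proteins pattern the hindbrain, heart, limbs and trunk of the embryo. TDG, the glycosylase that excises 5fC from DNA, is a known binding partner of retinoic acid receptors.

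The sequences below show where 5fC peaks lay and where they did not. The first 3 lie in stretches that were under peaks in every one of the 9 *Tdg* null libraries. They are shown because no other place in *Rarb* was covered in as many libraries (13 of 19), because the *Cyp26a1* stretch was the only peak region of that gene outside the carcass, and because the *Rxrg* stretch was the only one of the 3 at a transcript start. CpG dinucleotides, the usual site of cytosine methylation and oxidation, are in capitals, and each sequence is read 5′ to 3′ along the strand of its gene. They were read from the NCBIM37 genome at chr14:17316701-17317000 (minus strand, *Rarb* intron), chr19:37777001-37777300 (plus strand, downstream of *Cyp26a1*) and chr1:169548240-169548439 (plus strand, the 200 bp before the start of the short transcript Rxrg-004).
Rarb intron stretch: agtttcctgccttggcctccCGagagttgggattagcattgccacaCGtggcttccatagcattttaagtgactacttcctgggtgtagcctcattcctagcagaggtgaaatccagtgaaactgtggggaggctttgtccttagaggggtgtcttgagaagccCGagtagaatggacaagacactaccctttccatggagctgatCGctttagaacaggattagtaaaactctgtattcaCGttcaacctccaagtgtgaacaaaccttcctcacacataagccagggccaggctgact
Cyp26a1 downstream stretch: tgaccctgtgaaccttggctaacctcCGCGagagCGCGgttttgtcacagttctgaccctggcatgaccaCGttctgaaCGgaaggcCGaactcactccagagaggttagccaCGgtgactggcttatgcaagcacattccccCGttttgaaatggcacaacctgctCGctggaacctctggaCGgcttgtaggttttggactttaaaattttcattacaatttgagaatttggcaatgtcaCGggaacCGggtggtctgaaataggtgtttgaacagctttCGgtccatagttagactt
Rxrg upstream of Rxrg-004: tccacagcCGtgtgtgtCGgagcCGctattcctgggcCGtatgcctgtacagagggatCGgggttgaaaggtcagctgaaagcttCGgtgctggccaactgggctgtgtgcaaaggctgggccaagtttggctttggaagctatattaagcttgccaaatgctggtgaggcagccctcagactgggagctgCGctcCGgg
The *Rarb* sequence holds 5 CpGs in 300 bp, the *Cyp26a1* sequence 14 in 300 bp and the *Rxrg* sequence 8 in 200 bp.

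A pair of promoters stands beside them because each carries a DR5 element, the direct repeat spaced by 5 bases that RAR-RXR heterodimers bind, and neither was under a peak in any of the 19 libraries. Each is the 200 bp before a transcript start, chr14:17407987-17408186 (minus strand) before Rarb-202 and chr19:37772098-37772297 (plus strand) before *Cyp26a1*. Here the half-sites of the DR5 are in capitals, and in *Cyp26a1* they read as the repeat on the opposite strand.
Rarb upstream of Rarb-202: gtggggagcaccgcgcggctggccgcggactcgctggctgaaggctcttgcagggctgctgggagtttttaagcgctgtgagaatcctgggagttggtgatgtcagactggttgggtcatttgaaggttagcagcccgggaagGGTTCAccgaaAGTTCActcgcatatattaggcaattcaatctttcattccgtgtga
Cyp26a1 upstream of the gene start: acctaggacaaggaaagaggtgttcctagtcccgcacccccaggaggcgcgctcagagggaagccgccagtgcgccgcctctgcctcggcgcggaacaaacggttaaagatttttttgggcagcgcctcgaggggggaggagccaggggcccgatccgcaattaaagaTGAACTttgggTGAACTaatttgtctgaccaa
These promoters hold 11 and 14 CpGs in 200 bp. Both starts are among the CpG-rich ones described below, most of which had no null peak within 500 bp.

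Peaks were far more numerous in the null tissues across the whole genome. *Tdg* null libraries held 101344 to 254319 peaks, and WT libraries 1563 to 42013. The share of the ungapped genome under peaks was 2.68% to 8.09% in null and 0.0349% to 0.939% in WT. Read depth is unknown, because the files list positions without heights or counts. The *Tdg* null liver that was set aside held 228 peaks and none in the 10 windows. The window of *Tdg* itself, the targeted gene, was at 4.20%, 0%, 2.91% and 2.26% under peaks in the *Tdg* null hindbrains A, O, Q and Z and at 0% in the 4 WT hindbrains, a difference that did not pass the test (exact permutation p = 0.143, adjusted p = 0.183). Peak positions do not show whether the deleted bases were missing, so these values cannot check the genotype labels.

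Over the 10 windows together, null hindbrains A, O, Q and Z had 6.34%, 4.36%, 5.13% and 5.42% of their bases under peaks. In the WT hindbrains of the same litters the values were 0%, 0.262%, 0.887% and 0%. Null heart reached 18.6% and 6.99% in litters pair_a and pair_b, null carcass 11.7% and 17.0%, and null liver 8.64% in its single library. WT heart was at 0.262% and 0.187%, WT carcass at 2.36% and 1.91%, and WT liver at 0.875% and 0%. No null library overlapped a WT library of its own tissue. The null windows carried 1.46 to 2.85 times the genome-wide share of their library, and the WT windows that held peaks 1.49 to 2.74 times. Bulk tissue does not tell whether more cells carried 5fC or each cell carried more.

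**Figure D1:**
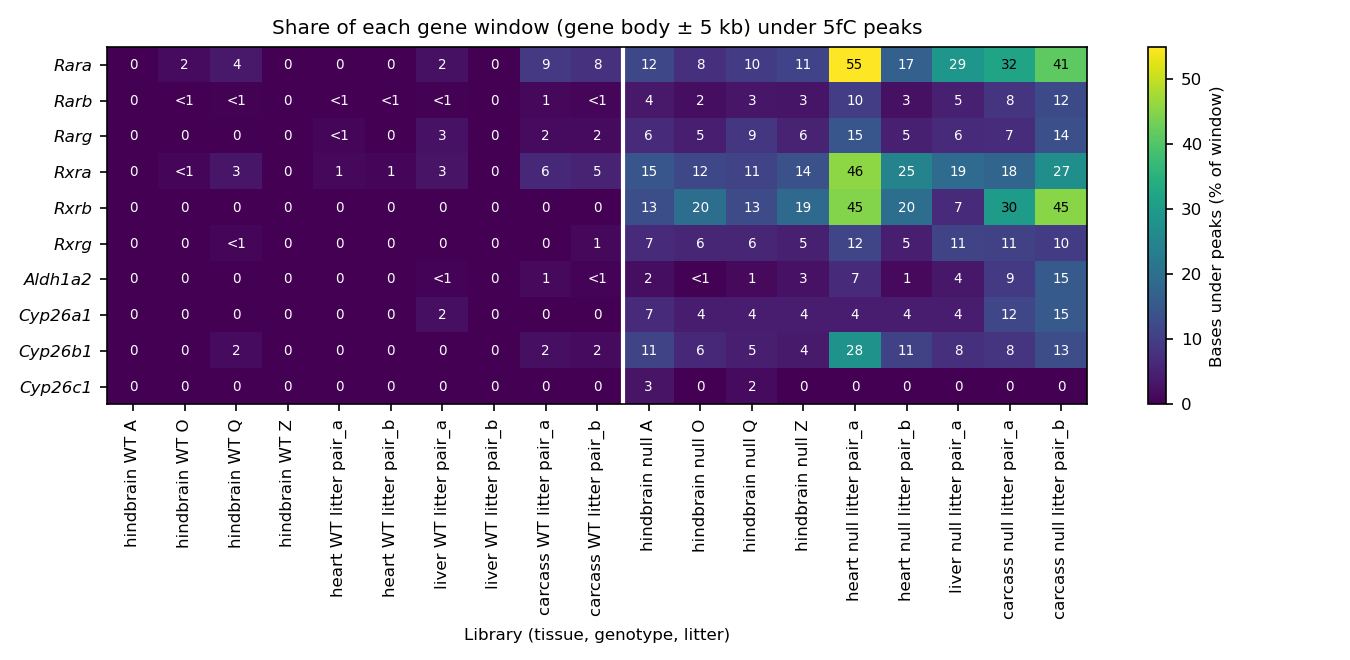
Percent of each gene window (gene body plus 5 kb on each side) under 5fC peaks, one row per gene and one column per library, WT on the left and Tdg null on the right of the white line, with the values rounded to whole percents. Rara, Rxra and Rxrb hold the highest values, up to 54.9% in the null heart of litter pair_a, and Cyp26c1 is at 0 outside 2 null hindbrains.

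In hindbrain, 9 of the 10 genes had every *Tdg* null library above every WT library, against 64.1% of all 26177 genes tested. Among genes with windows as long as these, the share was 72.9%. Each of the 9 had an exact permutation p of 0.0286, the smallest that 4 against 4 libraries allow, and an adjusted p of 0.0445 over all genes tested. The exception was *Cyp26c1* (exact permutation p = 0.429, adjusted p = 0.489). The median difference over the 10 genes was 5.91 percentage points, and over all genes tested 3.87. Divided by the genome-wide share of each library, 5 of the 10 genes kept every null hindbrain above every WT hindbrain (*Rarb*, *Rarg*, *Rxrb*, *Aldh1a2* and *Cyp26a1*), against 43.5% of all genes. In all of these but *Rarb*, every WT hindbrain was at 0%, so the division could not have ended the call. Among the genes with a WT hindbrain peak (*Rara*, *Rarb*, *Rxra*, *Rxrg* and *Cyp26b1*), only *Rarb* kept it. The WT hindbrains of litters A and Z, with 1564 and 1563 peaks, held none in the 10 windows. Without those libraries the count was again 9, against 64.2% of all genes.

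The RAR receptors bind retinoic acid directly. *Rara*, the broadly expressed member, was at 11.8%, 7.65%, 9.57% and 11.0% in null hindbrains A, O, Q and Z and at 0%, 1.58%, 3.68% and 0% in the WT hindbrains. Its mean was 10.01% ± 1.83 (SD, n = 4) in null and 1.31% ± 1.74 (SD, n = 4) in WT. Every null value lay above every WT value, yet relative to the library-wide share the WT hindbrains O and Q, at up to 8.92 times, stood above all null hindbrains, which ran from 2.72 to 3.30 times. In the other null tissues *Rara* was at 54.9% and 16.8% in heart, 32.2% and 41.3% in carcass and 28.8% in liver. These 5 libraries all lay above the null hindbrain range.

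The peaks of *Rara* fell into blocks along the gene. A stretch in the last part of the gene, chr11:98827201-98833500, was under peaks in 13 of 19 libraries, 5 of them WT. A block in an intron near the 5′ end, chr11:98789701-98793300, was under peaks in both null hearts, both null carcasses and the null liver, in 3 WT libraries from carcass and liver, and in none of the 8 hindbrains. The stretch at the upstream edge of the window, chr11:98784132-98785300, was present in all 9 null libraries and in 1 WT carcass. It lies outside the body of *Rara*, is cut by the window edge, and the window also reaches into *Cdc6*.

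*Rarb*, a receptor gene that retinoic acid itself induces, lies over 388026 bp. Its null hindbrain values were 3.79%, 2.11%, 3.29% and 3.07%, and its WT values 0%, 0.100%, 0.226% and 0%. The groups did not overlap, and the means were 3.07% ± 0.706 and 0.0817% ± 0.107 (SD, n = 4 each). Because the gene is so long, these low shares still amount to many peaks, 17 to 23 in each null hindbrain, 19 and 54 in null heart, 38 and 56 in null carcass and 29 in null liver. Relative to the genome-wide share, *Rarb* was at 0.904 times in hindbrain, 0.957 in heart, 1.58 in carcass and 1.57 in liver.

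Across all libraries 90 separate regions lay over *Rarb*, and 3 of them, all in introns, were found in every null library. The most widely shared, chr14:17316001-17317300, was also under peaks in 4 WT libraries, 1 hindbrain, 1 heart and both carcasses. The others, chr14:17342201-17343500 and chr14:17379901-17381500, were each found in 1 WT carcass besides. Another 33 regions were seen in 1 library alone.

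*Rarg*, which is expressed in cartilage precursors and skin, was at 6.45%, 4.60%, 8.59% and 5.52% in null hindbrain and at 0% in all 4 WT hindbrains. Null heart was at 14.7% and 4.91%, carcass at 7.06% and 13.5% and liver at 6.45%. The null heart, carcass and liver values each overlapped the null hindbrain range. A single region, in an exon near the 3′ end at chr15:102065401-102066800, was covered in all 9 null libraries and in a WT heart and a WT liver.

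The RXR receptors are the partners of RAR and of other nuclear receptors. *Rxra* was at 14.8%, 11.8%, 11.3% and 13.7% in null hindbrain and at 0%, 0.83%, 3.31% and 0% in WT hindbrain. The means were 12.9% ± 1.63 and 1.04% ± 1.57 (SD, n = 4 each), with no overlap. Relative to the genome-wide share, however, WT hindbrain reached 7.07 times and null hindbrain 3.21 to 4.42. In null heart *Rxra* was at 45.6% and 24.6%, in carcass at 17.8% and 27.2% and in liver at 19.1%, all above the null hindbrains. Relative to the genome-wide share the carcasses, at 3.31 and 3.61 times, lay within the null hindbrain range.

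Of 38 regions over *Rxra*, 4 were in every null library, all inside introns: chr2:27547901-27551100, chr2:27553401-27556000, chr2:27594401-27596500 and chr2:27601101-27602400. The third of these had no WT peak. The region around the 3′ end of the gene, chr2:27617401-27620300, was in 8 null and 5 WT libraries, as many WT libraries as any region of the 10 genes. Both null hearts shared 3 intronic regions found in no other null library, the longest at chr2:27542601-27545100. Of the bases of *Rxra* covered reproducibly in at least 1 null tissue (in 2 libraries, or in the single liver), 25.4% were covered so in heart alone. Such single-tissue counts and shares, here and for the genes below, have no value over all genes beside them. The null libraries also differ in peaks across the genome, from 101344 in liver to 254319 in the heart of litter pair_a.

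*Rxrb*, the most compact of the receptor genes, had 13.3%, 19.9%, 12.7% and 18.7% under peaks in null hindbrain and 0% in each of the 10 WT libraries. Its null hindbrain mean was 16.1% ± 3.70 (SD, n = 4). Relative to the genome-wide share the null hindbrain mean was 4.96 times, at percentile 98.1 of all genes. Null heart was at 44.6% and 19.9%, carcass at 30.2% and 45.2% and liver at 6.63%, below every null hindbrain. The window also reaches into *Col11a2*, *H2-Ke6* and *Slc39a7*. Covered in 8 of 9 null libraries, the liver being the exception, was an exonic region at chr17:34173001-34174200.

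*Rxrg*, a receptor with a narrow tissue range, was at 6.83%, 5.85%, 5.85% and 4.88% in null hindbrain, and at 0%, 0%, 0.781% and 0% in WT hindbrain. Null heart was at 11.5% and 4.68%, carcass at 10.5% and 9.76% and liver at 11.3%. Carcass and liver lay above all null hindbrains, and heart overlapped them. Relative to the genome-wide share the carcass, at a mean of 1.62 times, overlapped the null hindbrains, which ran from 1.33 to 2.19 times, and the liver was at 3.73 times. The stretch at chr1:169547901-169549000 surrounds the start of Rxrg-004 and was in all 9 null libraries and no WT library. Liver alone covered 36.4% of the reproducible bases of *Rxrg*, a share that rests on 1 library.

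**Figure D2:**
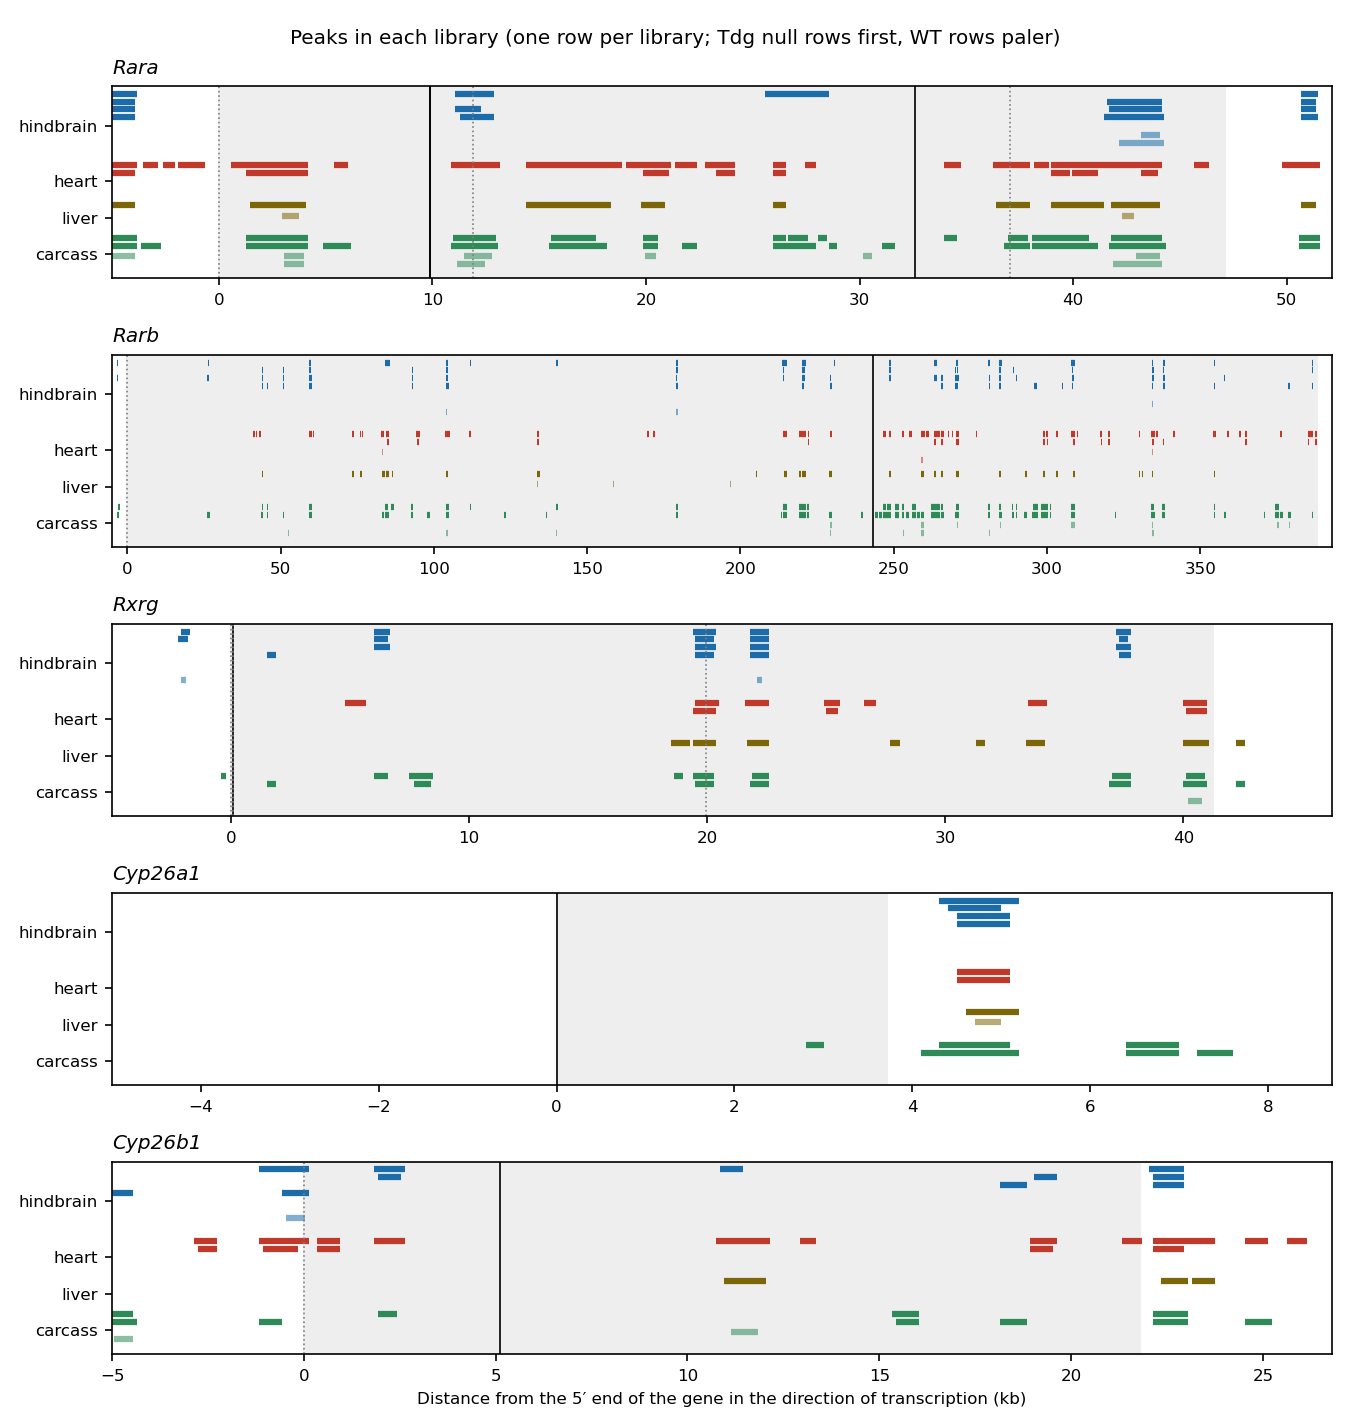
Peaks along Rara, Rarb, Rxrg, Cyp26a1 and Cyp26b1, with distance from the 5′ end of the gene in kb along each horizontal axis and one row per library, Tdg null rows first in full colour and WT rows paler within each tissue. Grey shading marks the gene body, solid lines CpG-rich and dotted lines CpG-poor protein-coding transcript starts; the start of Cyp26a1 carries no peak while a stretch downstream does in all 9 null libraries.

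*Aldh1a2* encodes the main retinoic acid-synthesising dehydrogenase of the early embryo. It was at 1.99%, 0.332%, 1.44% and 2.76% in null hindbrain and at 0% in WT hindbrain, with means of 1.63% ± 1.02 and 0% (SD, n = 4). Null carcass was at 9.29% and 15.5%, above the null hearts at 6.74% and 1.44%, the null liver at 3.54% and all null hindbrains. WT carcass was at 1.44% and 0.553%. Carcass alone held 58.7% of the reproducible bases of *Aldh1a2*, and 6 regions were found in both null carcasses and in no other null library. Neither value has a share over all genes beside it, and the null carcass of litter pair_b had 220444 peaks across the genome. The region found in most libraries, chr9:71123001-71124700 in an intron, was in 8 null libraries and no WT library.

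Of the CYP26 enzymes, which degrade retinoic acid, *Cyp26a1* had a simple pattern. One region, chr19:37776401-37777500, downstream of the gene, was found in all 9 null libraries and in 1 WT liver. It set the window at 6.56% in null hindbrain A and at 4.37% in the other 3, in both null hearts and in the null liver. Null carcass was higher, at 11.7% and 15.3%, and held the other 3 regions of the window. Within the gene body alone, null and WT hindbrains were equal at 0%.

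*Cyp26b1* was at 11.3%, 6.29%, 4.72% and 3.90% in null hindbrain and at 0%, 0%, 1.57% and 0% in WT hindbrain. Null heart was at 28.3% and 10.7%, carcass at 8.30% and 13.0% and liver at 7.55%, and these ranges overlapped the hindbrain range. Both hearts shared 2 regions found in no other null library, chr6:84542801-84543400 in an intron and chr6:84546001-84546600 upstream. This count, too, has no share over all genes beside it. *Cyp26c1* was at 2.81% and 1.68% in null hindbrains A and Q, and at 0% in the other 17 libraries. Its single region, chr19:37757101-37757600, lies upstream of the gene, in a window that also reaches into *Exoc6*.

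Taking the litter as the replicate, the null embryo exceeded its WT partner in all 6 litters for 9 of the 10 genes, against 55.5% of all 29934 genes tested and 67.8% of those with windows as long as these. For *Cyp26c1* it did so in 2 litters. The value of litters A, O, Q and Z was the hindbrain difference. In pair_a the differences of heart, carcass and liver were averaged, and in pair_b those of heart and carcass, so the litters differ in tissue. The mean differences ran from 3.43 percentage points in *Aldh1a2* to 20.7 in *Rxrb* among the 9. The exact sign-flip p of each was 0.0312 and the adjusted p 0.0563, which are the smallest values 6 litters allow here, so no gene of the genome could pass 0.05. Relative to the genome-wide share the count was 3 of 10, against 25% of all genes.

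Between null hindbrain, heart and carcass, 0 of the 10 genes and 0% of all 29258 genes tested passed an adjusted p of 0.05 by the exact permutation test. The smallest adjusted p the design gave was 0.0715. At an unadjusted exact p under 0.05, there were *Aldh1a2* (p = 0.0190) and *Rxra* (p = 0.0381), 2 of 10 against 28.1% of all genes, so the genes did not exceed the background. Relative to the genome-wide share there were 4 of 10 against 31.1%, namely *Rara*, *Rxra*, *Aldh1a2* and *Cyp26a1*. On that scale *Rara* and *Rxra* were lowest in hindbrain and carcass respectively, at 2.97 and 3.46 times, and *Aldh1a2* and *Cyp26a1* were highest in carcass, at 1.89 and 2.10 times. Heart and carcass of a litter share an embryo, which this test does not take into account. Null hindbrains came from other litters and embryos than null hearts and carcasses, so tissue and litter cannot be separated between them.

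**Figure D3:**
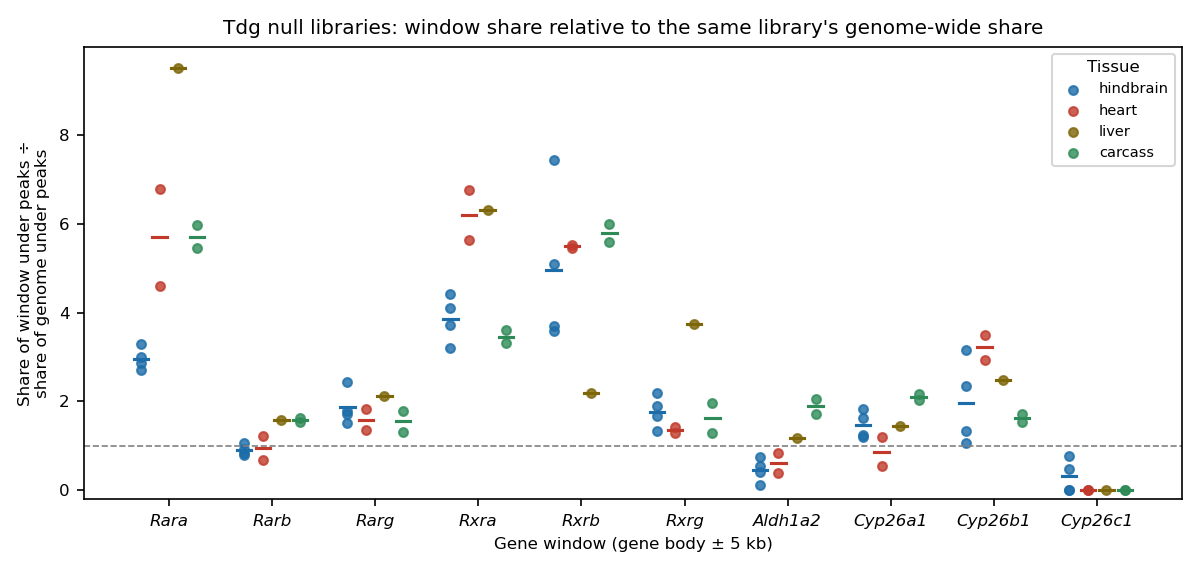
Share of each gene window under peaks divided by the share of the genome under peaks in the same Tdg null library, one point per library coloured by tissue, with bars at the tissue means and a dashed line at 1. Rara is at 9.51 in liver against 2.97 in hindbrain, and Rxrb at 2.19 in liver against 4.96 in hindbrain.

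Within the gene windows, exons had the highest mean share under peaks in null hindbrain. Their summed share was 13.4% ± 0.840 in null hindbrain (SD, n = 4), against 4.37% ± 0.993 for introns, 9.48% ± 2.35 for promoters (the 1000 bp before a transcript start), 9.24% ± 1.23 for the rest of the upstream flank and 6.88% ± 0.980 for the downstream flank. Every null hindbrain had more of its exons (12.3% to 14.2%) than of its introns (3.11% to 5.52%) under peaks. The exon share was 12.9% and 30.9% in null heart, 16.2% and 21.9% in carcass and 14.7% in liver, and in 1 null carcass the downstream flank, at 22.9%, exceeded it. The intron shares of the same libraries were 6.67% and 17.4% in heart, 11.1% and 16.0% in carcass and 8.56% in liver. Of the 661365 intron bases, 383733 belong to *Rarb*, a gene with low shares, so the summed intron share rests largely on that gene. In null hindbrain A the promoter share, at 12.9%, exceeded the exon share of 12.3%. Exons exceeded introns in 7 of the 10 genes in null hindbrain and in carcass, in 6 in heart and in 4 in liver. The paper reports exons and untranslated regions as the features with most enrichment across the genome. The share of all genes with exons above introns is not given here, so these counts have no background beside them.

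**Figure D4:**
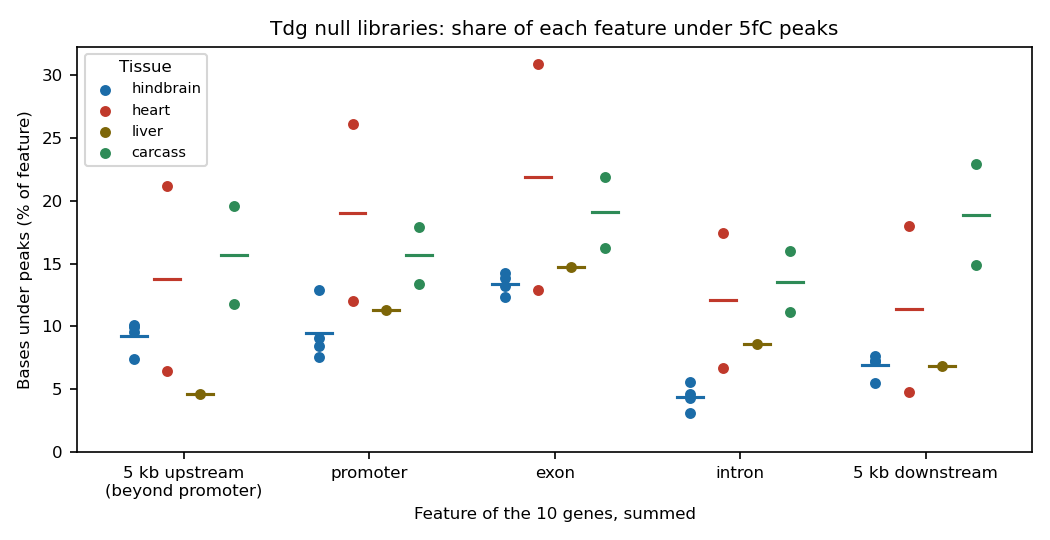
Percent of the bases of each feature class under peaks, summed over the 10 genes, one point per Tdg null library coloured by tissue, with bars at the tissue means. The exon points of null hindbrain, 12.3% to 14.2%, lie above all its intron points, 3.11% to 5.52%.

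The 10 genes have 31 distinct protein-coding transcript starts, which were divided by the CpG content around them. A start was called CpG-rich where the 500 bp on each side had an observed over expected CpG ratio above 0.6 and a GC content of at least 50%. Of the 17 CpG-rich starts, 12 had no peak within 500 bp in any null library and the other 5 had one in 1 library, and the mean share under peaks was at most 2.73%. Among the 14 CpG-poor starts 4 had a peak in 5 or more null libraries, namely Rara-201, Rxra-004, Rxra-003 and Rxrg-004, the last at 88.6%. Rxra-004 lay just under the cut, at a ratio of 0.583 and 63.0% GC, with 31.1% under peaks. Near it were Rarg-006 and Rxrg-003, both at a ratio of 0.582, with 0% and 2.11%. The 2.73% limit of the CpG-rich starts therefore depends on where the cut was set. Across all protein-coding starts of the genome, 73.7% of CpG-rich starts had no null peak, against 70.6% here, and 6.47% of CpG-rich and 14.3% of CpG-poor starts had a peak in 5 or more null libraries. Several starts of a gene lie within the same 500 bp and are not independent.

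**Figure D5:**
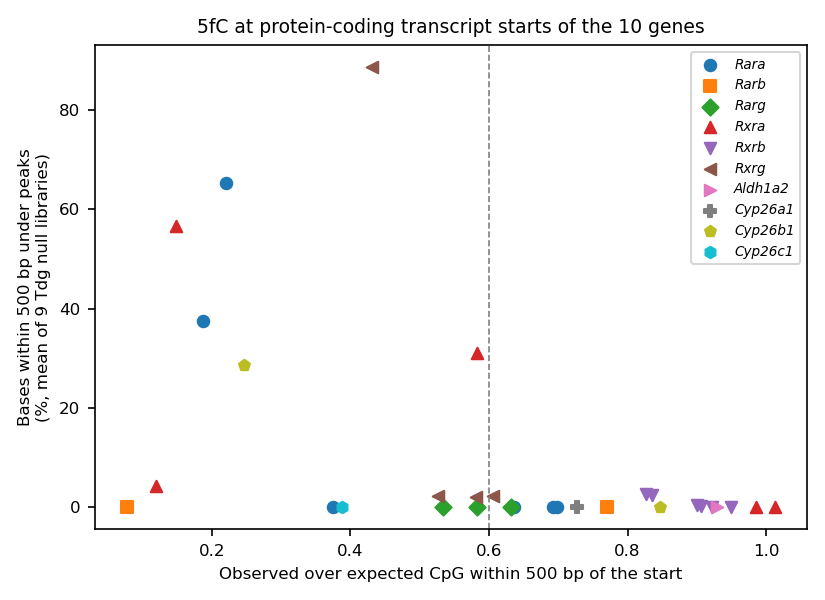
Observed over expected CpG ratio within 500 bp of each protein-coding transcript start (horizontal axis) against the mean percent of those bases under peaks in the 9 Tdg null libraries (vertical axis), one symbol per start, coloured by gene, with a dashed line at 0.6. Starts to the right of the line lie at or near 0, at most 2.73%, and Rxrg-004 reaches 88.6%.

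Reproducibly covered bases held more CpGs per kb than the rest of the window in 7 of 10 genes in null hindbrain, and in 6 of the 9 genes with such bases in each of heart, carcass and liver. In *Rarb* the null hindbrain stretches held 12.9 CpGs per kb and the rest of the window 6.16. In *Rxrb* and *Cyp26b1* the order was the opposite in each tissue, with 26.2 against 34.3 in *Rxrb* in hindbrain. It was also the opposite in *Cyp26a1* in hindbrain (27.1 against 30.3) and carcass (19.3 against 31.3), and by a small margin in *Rara* in heart (19.5 against 19.9) and liver.

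The retinoic acid response elements of the windows were listed as direct repeats on either strand with 5 bases (DR5) or 2 bases (DR2) between the half-sites. A half-site was AGGTCA, one of its variants AGTTCA and also GGGTCA, or the doubly changed form GGTTCA. There were 8 distinct DR5 and 8 distinct DR2 matches, and 11 of the 16 were under no peak of a null library. That count is over all 9 null libraries together. Single null libraries had 4.36% to 18.6% of the bases of the 10 windows under peaks, a share on another basis. The share of bases under no peak of any null library is not given here. Whether the matches differed from it was not tested. The following matches are the 3 that were covered in 5 or more null libraries, printed with the half-sites in capitals.
Rxrb DR5: AGGTCActcaaAGGTCA
Cyp26a1 DR2: GGTTCAcaGGGTCA
Rarb DR2: GGGTCAagGGTTCA
The first lies in an exon at chr17:34173785-34173801 and was covered in 8 null libraries. The second lies downstream of *Cyp26a1* at chr19:37777001-37777014, the first bases of the stretch printed above, and was covered in 9 null libraries and 1 WT library. The third lies in an exon of *Rarb* at chr14:17264680-17264693 and was covered in 5 null libraries.

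The 3 matches within 1000 bp upstream of a transcript start, all DR5, were under no peak in any of the 19 libraries.
Rarb DR5: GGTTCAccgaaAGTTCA
Cyp26a1 DR5: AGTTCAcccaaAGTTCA
Rara DR5: AGTTCAgcaagAGTTCA
They lie at chr14:17408027-17408043, 49 bp from the start of Rarb-202, at chr19:37772266-37772282, 24 bp from the start of *Cyp26a1*, and at chr11:98821322-98821338, 396 bp from the start of Rara-004. All 3 starts are CpG-rich. Of such starts, 12 of 17 here and 73.7% across the genome had no null peak within 500 bp. Of 37257 promoters of 1000 bp, taken once per gene at its 5′ end, 0.327% held a DR5 and 0.947% a DR2. Counted that way, 1 of the 10 genes held a DR5, *Cyp26a1*, and 0 held a DR2, since Rarb-202 and Rara-004 start inside their genes. A match is a string of letters, and binding was not measured.

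WT peaks mostly lay where null peaks did. Of the window bases under WT peaks, 89.4% were also under a null peak of the same tissue, 98.9% in hindbrain, 100% in heart, 92.7% in carcass and 55.7% in liver, where a single null library was available. Of 232 regions over the 10 windows, 47 held a WT peak, and 5 of these held no null peak.

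Other genes of retinoid biology were read in the same way. Of 11 genes for retinoid transport and metabolism, 10 had every null hindbrain above every WT hindbrain, and of 8 receptor coregulators, 7 of the 7 tested did, against 64.1% of all genes tested and 72.9% of those with windows as long as the 10 genes here. The median difference in hindbrain was 7.18 percentage points over the first list and 5.14 over the 7 coregulators tested, or 3.45 over all 8 with the untested *Ep300*, against 3.87 over all genes tested. *Crabp2*, a retinoic acid carrier of the cytoplasm, was at 16.1% ± 2.44 in null hindbrain (SD, n = 4) and at 0% in WT. *Lrat*, which esterifies retinol for storage, was at 0.935% ± 1.14 in null (exact permutation p = 0.429, adjusted p = 0.489). Among coregulators, *Nrip1* was at 9.28% ± 1.94 in null and 0.519% ± 0.423 in WT (SD, n = 4 each). *Ep300*, a histone acetyltransferase, had no peak in any hindbrain library. Between null tissues 0 of the genes of either list were called.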

How the data were processed

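Peaks of 5fC were analysed in 19 of 20 libraries. Per the study's methods, reads were trimmed with Trim Galore and aligned with Bowtie2 to NCBIM37 (mm9), and the authors called peaks in each library separately with MACS in SeqMonk (p-value cutoff 1e-05, fragment size 200 bp). Whether input libraries were used or duplicates removed is not given in the sources used here. The deposited values are of no expression unit but peak positions alone (chromosome, start and end on a 100 bp grid), with no score, height or count, so the depth is unknown and no counting interval could be given. Any difference in depth or enrichment between libraries therefore enters the number of peaks.

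Gene windows came from the GENCODE annotation of the same build, and the sequences from its genome. For each gene the percent of the window under peaks was computed per library (Python 3.11.15, numpy 2.4.6). Genotypes were compared in hindbrain (two-sided exact permutation over 70 arrangements; called where every null library exceeded every WT library) and over 6 litters (two-sided exact sign-flip test over 64 arrangements; called where all litters were higher). Null tissues were compared by an exact permutation of the between-tissue sum of squares (420 arrangements; adjusted p under 0.05). P-values were adjusted by Benjamini-Hochberg over all genes with a peak. Replicates were separate embryos, paired by litter in the labels. As a check of this pairing, same-litter hindbrain deviations from the group means correlated across genes at -0.024 to 0.045, within the range of other-litter pairs, -0.146 to 0.152. All 10 genes are named, as are the 2 highest and 1 lowest of each other list in null hindbrain, of which 1 gene in each list is not reported here. The test code was tested on simulated data. The genes and lists were chosen with earlier results of these data known. Alternatives changed the window, the minimum peak length, peak merging, the measure, the scaling, the pairing and the libraries used.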

Additional observations from a re-analysis of the deposited data

Results flagged for a closer look

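In 3 of the 17 groups of 4 hindbrain libraries that could be examined, 1 library stood apart from the other 3, which were equal, so that the gap made up the whole range (a gap over range of 1); chance sets about 1 in 20 groups of untied values apart, a rate that does not apply to groups with 3 equal libraries. WT hindbrain Q was at 0.781% of the *Rxrg* window and the other WT hindbrains at 0%. The same library was at 1.57% of the *Cyp26b1* window and the others at 0%; with 21606 peaks it had the most of the WT hindbrains. Null hindbrain A was at 6.56% of the *Cyp26a1* window and the other 3 at 4.37%.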

How the results depend on the processing

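The count of genes with every null hindbrain above every WT hindbrain was 8 to 10 of 10 with other windows, a minimum peak length of 600 bp, merged peaks, peak midpoints or a log2 scale (57.5% to 71.1% of all genes), and 9 whichever library was left out (64.2% to 70.4%). It fell to 5 relative to the genome-wide share of each library (43.5%), as the count over litters fell to 3 (25%). The cause was not tested. With the litter as a pair (replicate block) the hindbrain count was again 9 (65.5% of all genes), with an exact p of at least 0.125. Over the 6 litters, 8 genes had every null embryo above every WT embryo when the pairing was dropped, with no replicate block (52.6%). The mean share of the 10 windows under peaks in null hindbrain, 5.31%, was 4.46% with peaks of at least 600 bp and 4.97% to 5.63% when a library was left out. The tissue count was 0, as for all genes, under every alternative run, which says nothing of its stability. Among single genes, *Aldh1a2* was no longer called with peaks of at least 600 bp, *Cyp26a1* was not within the gene body alone, and *Cyp26c1* was with 10 kb flanks. With those flanks the *Cyp26c1* window takes in the region downstream of *Cyp26a1* that was in all 9 null libraries. The counts without the WT hindbrains, or the litters, A and Z were chosen after seeing the data; the litter count was then 9, against 61% of all genes. Without a peak score no stricter threshold could be set.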
